A study of Mus musculus with 9 samples.

Results

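Solute carrier family 6 moves neurotransmitters, amino acids and related small molecules into cells with sodium and chloride. The genes described here are 7 of its members: the brain proline transporter Slc6a7, the neutral amino acid transporters Slc6a15 and Slc6a17, the GABA transporter Slc6a11, the glycine transporter Slc6a9, the creatine transporter Slc6a8 and the taurine transporter Slc6a6. They were found as the probe sets whose only gene symbol in the platform annotation is one of these names, which gave 7 probe sets for 7 genes, among 28815 probe sets and 19935 genes with such a probe set. All 7 passed the filter on low values, a mean over the 9 arrays of at least log2 5.89. The name of the group fits 5 of the genes. The other 2, Slc6a6 and Slc6a8, carry taurine and creatine.

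The 9 arrays, each of 1 colour and hybridised with RNA of mouse striatum, form 3 groups of 3. Control mice were injected with saline 4 times, 2 h apart, and sampled after 1 week. Acute MPTP mice received 20 mg/kg MPTP intraperitoneally on the same schedule and were also sampled after 1 week, while chronic MPTP mice received 4 mg/kg once a day for 20 days and were sampled 8 weeks later. Both regimens add up to 80 mg/kg, and MPTP is a toxin that damages dopamine neurons, whose axons end in the striatum. Regimen and sampling time both set the chronic group apart from the rest and cannot be told apart, and no saline group sampled at 8 weeks was analysed here. Strain, age and sex of the mice are not given in the sources used here. The labels also do not tie the arrays to separate animals, so the errors measure the spread between these samples, which may be technical.

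Uptake by this family ends the action of GABA and glycine at synapses and keeps their levels outside cells low. Slc6a11 is known as a transporter of astrocytes, and Slc6a9 is found mainly on astrocytes, with a smaller pool near glutamate synapses. Slc6a7 sits on the terminals of glutamatergic axons, many of which reach the striatum from cortex and thalamus. The cell bodies of those neurons, where mRNA is made, lie outside the striatum. The arrays measure mRNA, so Slc6a7 values do not measure the protein on these terminals. Slc6a17 is a vesicular carrier in such neurons, and Slc6a15 takes up branched-chain amino acids and proline in neurons.

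The 7 genes were proposed with differences between these groups already known, and which comparison they were chosen from is not recorded. Their differences in all 3 comparisons are therefore descriptions. The fit over all 16335 tested probe sets serves as the background and not as evidence for them. Values are deposited log2 intensities, so a difference of 1 is a doubling, and levels of different genes are not set against each other.

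At 8 weeks after chronic MPTP, the proline transporter Slc6a7 was lower than on every control and every acute array, and the creatine transporter Slc6a8 was higher than on every one of them. Slc6a7 was 1.88-fold lower than in controls and Slc6a8 1.29-fold higher. At 1 week after acute MPTP none of the 7 genes had groups that did not overlap. Slc6a11 and Slc6a9 differed by more than 1 log2 unit between arrays of the same control group. Slc6a15 had the smallest range of the 7, 0.27 over the 9 arrays. In limma with Benjamini-Hochberg adjustment 0 of the 7 passed in any comparison (adjusted p of 1 in acute against control, from 0.876 to 1 in chronic against control and from 0.877 to 1 in chronic against acute). At an unadjusted p under 0.05 there were 0, 3 and 2 of them.

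In acute against control, 0 of the 7 genes had groups that did not overlap, where 3.56% of all tested probe sets did. In chronic against control 1 of 7 was higher without overlap and 1 lower, where 2.88% and 3.67% of all probe sets were. In chronic against acute the same counts were 1 and 1, with 3.61% and 5.01% over all probe sets. The shares that passed in limma were 0%, 0% and 0.0122% over all probe sets, and 0.851%, 5.51% and 5.12% had an unadjusted p under 0.05. The comparisons share arrays, so their values for a gene are not independent of each other. The median difference of the 7 was -0.09 in acute and -0.01 in chronic MPTP against control, against 0.00 and -0.01 over all tested probe sets.

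**Figure D1:**
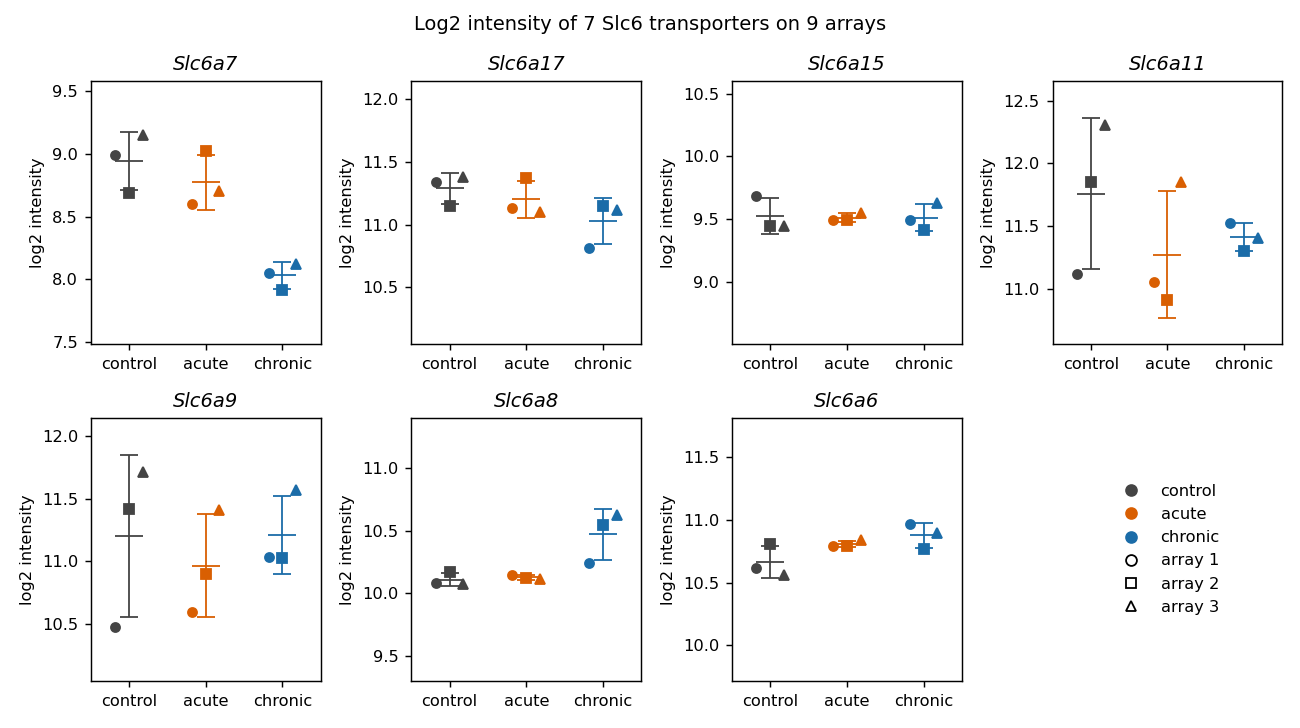
Log2 intensity (vertical axis, the same span of log2 units in each panel) of the 7 transporters by group. Each point is an array, with its shape giving the array number in the group, and the bars show the mean and SD of 3 arrays. The chronic arrays lie apart from the others for Slc6a7 (7.92 to 8.12 against 8.60 and above) and Slc6a8 (10.24 to 10.63 against 10.17 and below).

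Slc6a7 lay at log2 8.99, 8.69 and 9.15 on the control arrays, at 8.60, 9.02 and 8.70 after acute MPTP and at 8.05, 7.92 and 8.12 after chronic MPTP. Controls and acute arrays overlapped, and the highest chronic array lay below the lowest of the other 6. Group means were 8.94 ± 0.23 (SD, n = 3) in controls, 8.77 ± 0.22 in acute MPTP and 8.03 ± 0.10 in chronic MPTP. The log2 difference was -0.91 ± 0.15 (SE) for chronic against control, with a 95% interval from -1.24 to -0.58. It was -0.74 ± 0.15 for chronic against acute, 1.67-fold lower, and -0.17 ± 0.15 for acute against control. Of all tested probe sets, 0.23% had a larger absolute difference in chronic against control. Differences between group means made up 86.1% of the variance of Slc6a7 over the 9 arrays, against a median of 19.1% over all tested probe sets. Slc6a7 was proposed with differences between these groups known, so these shares describe it and are not evidence. In striatal tissue, fewer cells of a type and less RNA per cell cannot be told apart.

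Genes of cortical glutamatergic neurons also varied between arrays. The mean of 15 such genes, each centred on its own mean, was 1.03 on control 1, 0.67 on acute 1 and 0.94 on acute 2, and lay between -0.69 and -0.28 on the other 6 arrays, the 3 chronic ones among them. Of these 15 genes, 13 had a lower mean in chronic MPTP than in controls, as did 53.2% of all tested probe sets. Over the 9 arrays Pearson's r between Slc6a7 and this list mean was 0.55. Control 2, control 3 and acute 3 were also low in cortex genes, with list means from -0.49 to -0.28, and had Slc6a7 at 8.69, 9.15 and 8.70. Control 3 and acute 3 differed from the chronic arrays in other tissue too. They had the highest means of genes of thalamus, septum and hypothalamus, 1.02 and 0.49. Without control 1, acute 1 and acute 2, Slc6a7 differed by -0.89 between chronic MPTP and controls. With the means of the cortex list and of 21 genes of thalamus, septum and hypothalamus as covariates the difference was -0.58 ± 0.17, and that between chronic and acute MPTP was -0.45 ± 0.17.

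Genes of striatal projection neurons, the main cell type of the tissue, had higher means in both MPTP groups than in controls, though 0 of 18 passed in limma in any comparison. The mean of 18 of them was -0.45, 0.13 and -0.53 on the control arrays, -0.01 to 0.06 on the acute ones and 0.16, 0.26 and 0.35 on the chronic arrays. All 18 had a higher mean in chronic MPTP than in controls, as did 46.7% of all tested probe sets, with a median difference of 0.52. All 18 were also higher in acute MPTP than in controls (median 0.31) and in chronic than in acute MPTP (0.23). The 2 controls highest in Slc6a7 were the 2 lowest arrays in this list. Over the 9 arrays Pearson's r between Slc6a7 and this list mean was -0.81. Control 2 had a list mean of 0.13, near the 0.16 of chronic 1, and Slc6a7 lay at 8.69 on the first and 8.05 on the second. With the striatal list as a covariate, an alternative added after the data were seen, the Slc6a7 difference was -0.61 ± 0.21 for chronic against control. Because the list itself differed between the groups, this covariate cannot separate striatal content from treatment. The parts of cortical and striatal content in the Slc6a7 difference were not tested.

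**Figure D2:**
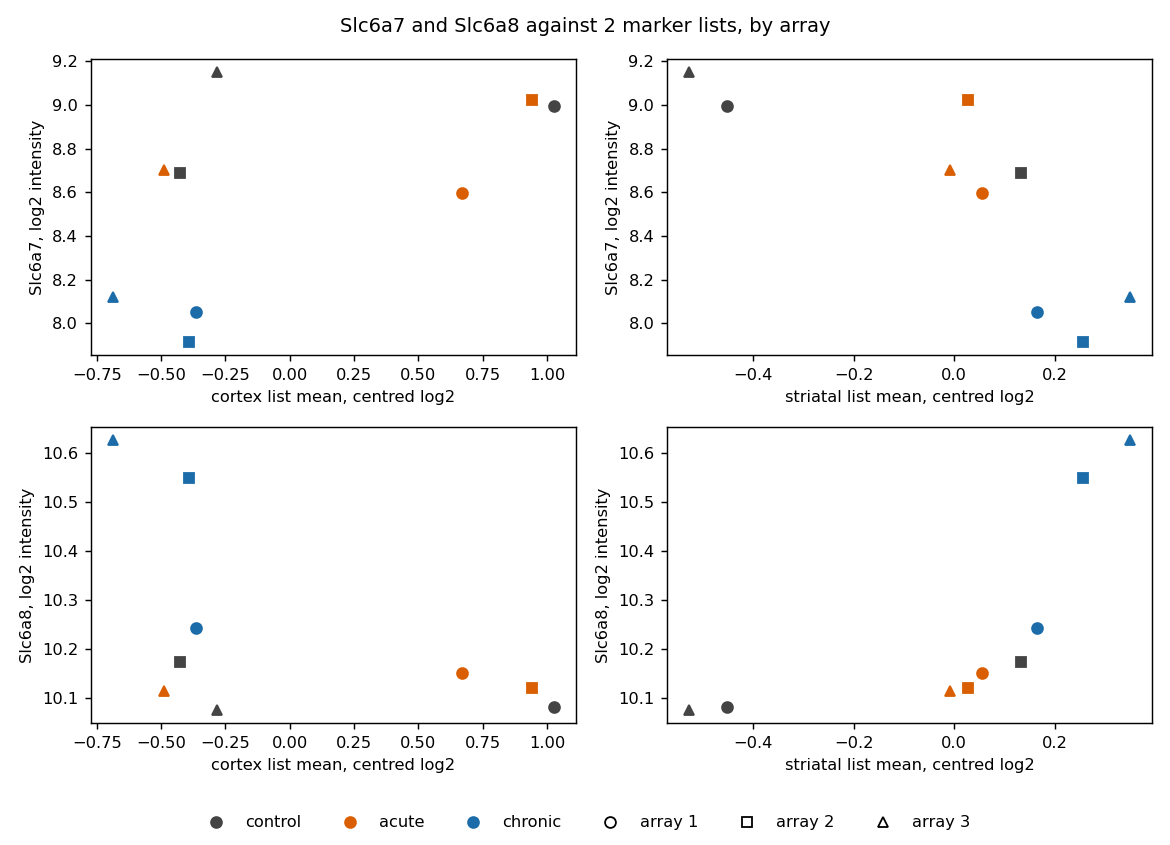
Log2 intensity of Slc6a7 (upper panels) and Slc6a8 (lower panels) on each array against the centred log2 mean of the cortex list (left) and of the striatal projection neuron list (right). Chronic arrays hold the lowest Slc6a7 and the highest Slc6a8. Control 2, control 3 and acute 3 lie near the chronic arrays on the cortex axis with Slc6a7 at 8.69 to 9.15. Control 3 and acute 3 are also the highest in genes of thalamus, septum and hypothalamus, and the part of cortical content was not tested.

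Slc6a17, the vesicular carrier of neutral amino acids, leaned the same way as Slc6a7 with overlapping groups. It lay at 11.34, 11.15 and 11.38 on the control arrays, at 11.13, 11.37 and 11.10 after acute MPTP and at 10.81, 11.15 and 11.12 after chronic MPTP. Only chronic 1 lay below all other arrays. The log2 difference was -0.26 ± 0.12 for chronic against control (95% interval -0.54 to 0.02), -0.18 ± 0.12 for chronic against acute and -0.09 ± 0.12 for acute against control. Without chronic 1 the first of these was -0.16, and with the tissue covariates it was -0.01 ± 0.16.

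Slc6a15, the neuronal carrier of branched-chain amino acids and proline, had group means that differed by at most 0.01 log2 units. It lay at 9.69, 9.44 and 9.44 on the control arrays, from 9.49 to 9.55 on the acute arrays and from 9.41 to 9.63 on the chronic arrays. All groups overlapped. Its 95% intervals were -0.23 to 0.21 for both MPTP groups against control, so differences of up to about that size are not excluded. Among the proline carriers the chronic difference of Slc6a7 had no counterpart of its size in Slc6a15.

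Slc6a8, which brings creatine into cells for the phosphocreatine energy buffer, lay at 10.08, 10.17 and 10.08 on the control arrays and at 10.15, 10.12 and 10.11 on the acute arrays. On the chronic arrays it lay at 10.24, 10.55 and 10.63. The 6 control and acute arrays overlapped and spanned a narrow range, while chronic 1 stood just above them and chronic 2 and chronic 3 further up. Group means were 10.11 ± 0.06 (SD, n = 3), 10.13 ± 0.02 and 10.47 ± 0.20. The log2 difference was 0.36 ± 0.11 (SE) for chronic against control, with a 95% interval from 0.12 to 0.60. It was 0.34 ± 0.11 for chronic against acute and 0.02 ± 0.11 for acute against control. Without chronic 1 the difference from control was 0.48, and without chronic 3 it was 0.28.

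The array lowest in the striatal list, control 3, was also the lowest in Slc6a8, at 10.08 beside 10.08 on control 1. The array highest in that list, chronic 3, was the highest in Slc6a8. Over the 9 arrays Pearson's r between Slc6a8 and the list mean was 0.72. Between control 1 and acute 2 the list mean went from -0.45 to 0.03, with Slc6a8 at 10.08 and 10.12. With the striatal list as a covariate the chronic difference from control was 0.22 ± 0.17, and with the cortex and thalamic lists it was 0.33 ± 0.17. The striatal list was itself higher in both MPTP groups than in controls, so that covariate cannot separate striatal content from treatment. The part of striatal content in the Slc6a8 difference was not tested. None of 5 tested genes of creatine synthesis and creatine kinases passed in limma in either direction in any comparison. Their median difference was 0.16 in chronic against control, against -0.01 over all tested genes, and it was 0.16 in acute against control. Gatm, the first enzyme of creatine synthesis, differed by 0.17 ± 0.17 between chronic MPTP and controls, and Ckb, the brain creatine kinase, by 0.07 ± 0.12.

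Slc6a6, the taurine transporter, lay at 10.62, 10.81 and 10.56 on the control arrays, from 10.79 to 10.84 on the acute arrays and at 10.97, 10.77 and 10.89 on the chronic arrays. Control 2 lay among the MPTP arrays, and control 1 and control 3 below all of them. The log2 difference from control was 0.21 ± 0.09 for chronic MPTP (95% interval 0.00 to 0.42) and 0.14 ± 0.09 for acute MPTP. Control 2 was also the control highest in the striatal list. With that list as a covariate both differences were 0.05, with SE of 0.14 and 0.11. The list was itself higher in both MPTP groups than in controls, so the covariate cannot separate striatal content from treatment. The part of striatal content in the Slc6a6 differences was not tested. Of 7 tested genes of taurine synthesis 0 passed in any comparison, and their median difference was 0.01 in acute and 0.00 in chronic MPTP against control.

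**Figure D3:**
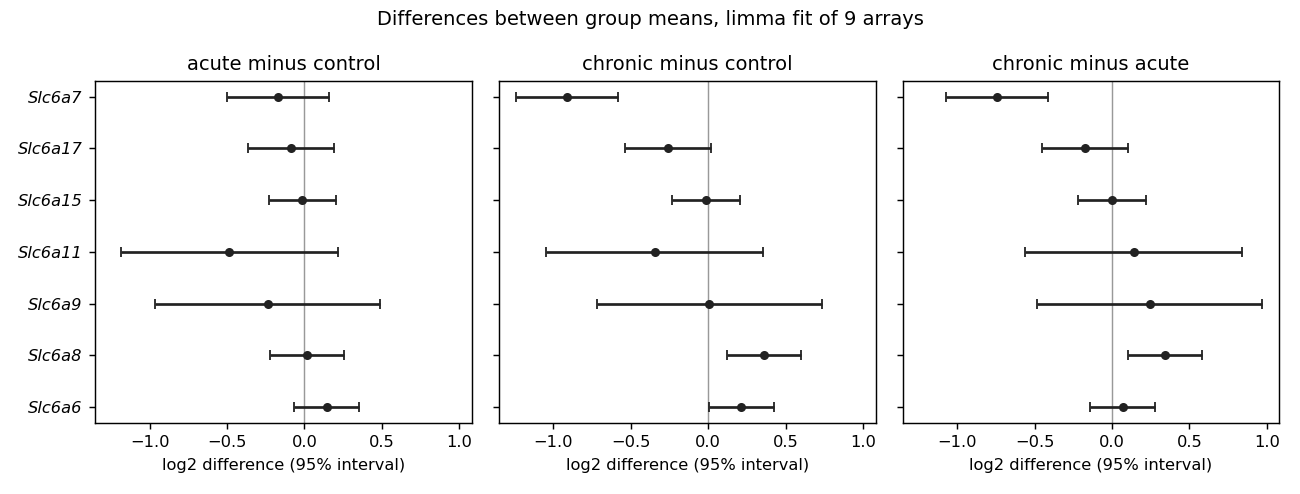
Log2 differences between group means of the 7 transporters (points) with 95% intervals from limma (bars) in the 3 comparisons, on a shared axis. Slc6a7 and Slc6a8 have intervals away from 0 in both comparisons of chronic MPTP, Slc6a6 only just in chronic against control, and Slc6a9 and Slc6a11 have the widest intervals.

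Slc6a11, the astrocyte GABA transporter, lay at 11.11, 11.85 and 12.30 on the control arrays, at 11.05, 10.91 and 11.85 after acute MPTP and at 11.52, 11.30 and 11.41 after chronic MPTP. All groups overlapped, and the control arrays alone spanned most of the range of 1.40 seen over the 9 arrays. The log2 difference was -0.49 ± 0.31 (SE) for acute against control, with a 95% interval from -1.19 to 0.21. It was -0.35 ± 0.31 for chronic against control and 0.14 ± 0.31 for chronic against acute. The last of these turned to -0.22 with the tissue covariates described above and to -0.44 without control 1, acute 1 and acute 2. The fit without those arrays leaves acute 3 as the only acute array. Between arrays of the same number, Slc6a11 was lower on all 3 acute arrays than on the controls, and with the number as a block the acute difference was -0.49 ± 0.24 (adjusted p = 0.98 in limma). Without control 3 the differences from control in acute and chronic MPTP were -0.21 and -0.07, and without control 1 they were -0.81 and -0.67.

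Slc6a9, the glycine transporter, lay at 10.48, 11.42 and 11.71 on the control arrays, at 10.60, 10.90 and 11.41 after acute MPTP and at 11.04, 11.03 and 11.57 after chronic MPTP. In each group the third array was the highest, and all groups overlapped. The log2 difference was -0.24 ± 0.32 for acute against control (95% interval -0.96 to 0.49) and 0.01 ± 0.32 for chronic against control (-0.72 to 0.73). These errors are from the fit without the array number as a block. Every group holds each array number, so the block cannot change these differences and only their errors can change. Without control 1 the differences from control in acute and chronic MPTP were -0.60 and -0.36, and without control 3 they were 0.02 and 0.26. Groups accounted for 7.9% of its variance over the arrays and for 23.0% of that of Slc6a11.

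Slc6a9 and Slc6a11 varied alike from array to array. Over the 9 arrays Pearson's r between them was 0.82, the highest of the 21 pairs of the 7 genes, and it was 0.86 after each group mean was taken off. These are descriptions of the 9 arrays, which fall into the 3 groups. Genes of thalamus, septum and hypothalamus had their highest mean on control 3 (1.02) and acute 3 (0.49), against -0.50 to -0.00 on the other 7 arrays. Slc17a6, the vesicular glutamate transporter of those regions, lay at 10.59 and 9.44 on these arrays and between 6.42 and 8.51 on the others. The mean of 15 astrocyte genes ran from -0.34 on control 1, where Slc6a9 was lowest, to 0.30 on control 3, where both transporters were highest. In acute against control 9 of these 15 were higher and 6 lower, where 51.5% and 48.4% of all probe sets were, and in chronic against control 6 were higher and 9 lower. With the cortex and thalamic lists as covariates Slc6a11 differed by -0.25 ± 0.13 and -0.47 ± 0.19 from control in acute and chronic MPTP, and Slc6a9 by 0.00 ± 0.16 and -0.10 ± 0.23. The parts of astrocyte and of neighbouring tissue content were not tested.

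**Figure D4:**
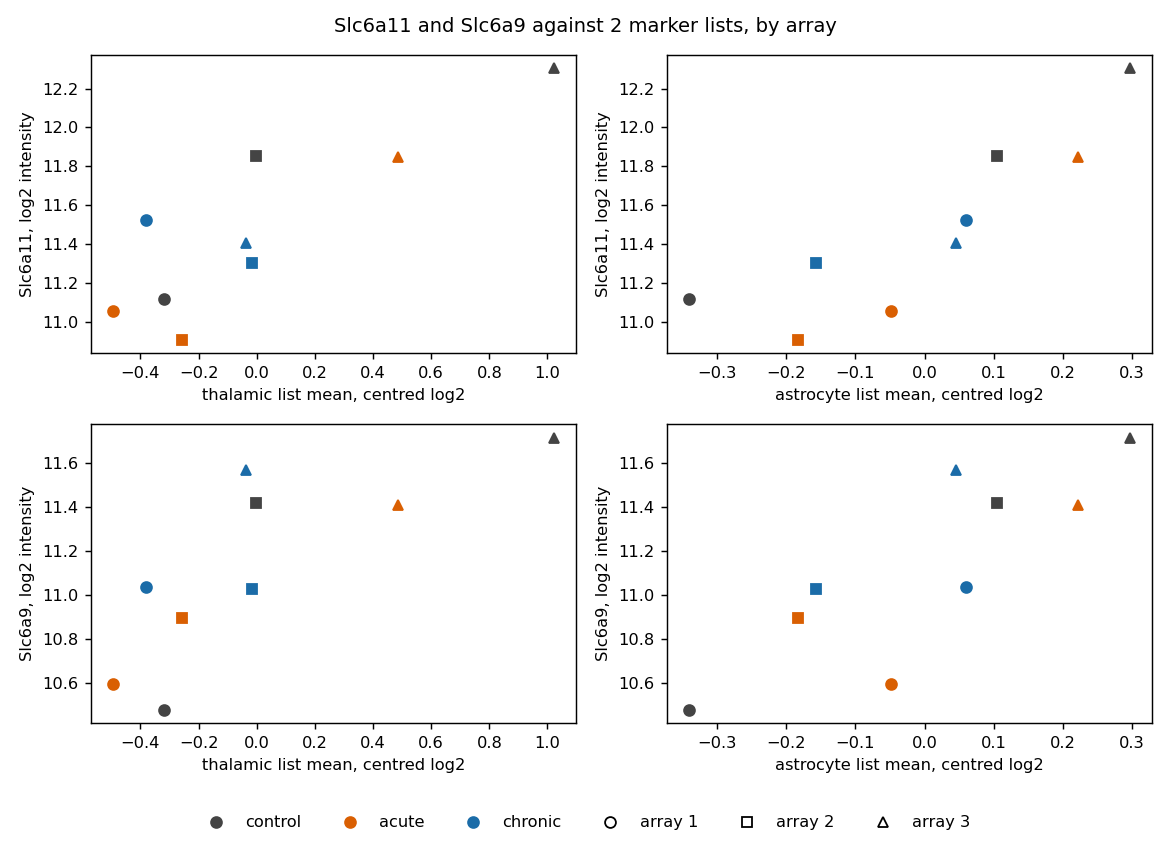
Log2 intensity of Slc6a11 (upper panels) and Slc6a9 (lower panels) on each array against the centred log2 mean of the thalamus, septum and hypothalamus list (left) and of the astrocyte list (right). Control 3, at 1.02 and 0.30 on the axes, holds the highest value of both genes, and the groups are interleaved.

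The start regions of this pair are shown because the 2 genes varied most alike. RefSeq promoter windows on GRCm38.p6, from 250 bases before to 50 after a gene start, were at hand for 3 of the 7 genes. Slc6a9 has 3 such windows and the one at the start of the gene is shown. It is chr4:117835008-117835307 on the plus strand, and the Slc6a11 window is chr6:114130991-114131290 on the plus strand. Capitals mark matches on either strand to the GC box GGGCGG, the TATA box TATAAA or the cAMP element core TGACG.
Slc6a9: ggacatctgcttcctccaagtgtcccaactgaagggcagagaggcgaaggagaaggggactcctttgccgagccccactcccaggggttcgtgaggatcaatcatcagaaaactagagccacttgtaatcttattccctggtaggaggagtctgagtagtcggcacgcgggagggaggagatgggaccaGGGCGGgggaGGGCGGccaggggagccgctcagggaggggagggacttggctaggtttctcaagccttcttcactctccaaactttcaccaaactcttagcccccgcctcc
Slc6a11: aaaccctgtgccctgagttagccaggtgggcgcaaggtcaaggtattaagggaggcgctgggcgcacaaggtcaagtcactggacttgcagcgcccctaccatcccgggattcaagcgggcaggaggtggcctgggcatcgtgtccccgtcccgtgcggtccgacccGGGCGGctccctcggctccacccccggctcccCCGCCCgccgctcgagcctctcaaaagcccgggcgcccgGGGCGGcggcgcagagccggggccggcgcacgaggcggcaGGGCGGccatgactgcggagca
The Slc6a9 window holds 2 GC boxes and the Slc6a11 window 4, with 0 matches to the other motifs in either. The other windows of Slc6a9, not shown, hold 0 GC boxes, and one of them holds 2 cAMP cores. Of all 32851 windows of the same length, 35.7% hold a GC box, 13.6% a TATA box and 20.8% the cAMP core. The GC content was 59.0% for Slc6a9 and 72.3% for Slc6a11, against a median of 52.7%. A match describes the letters in the window and is not a measured binding site.

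The other genes of the family had 13 probe sets with 1 symbol, of which 7 passed the filter. None of these 7 passed in limma in any comparison. Slc6a13, a GABA and taurine transporter of meninges and vessels, differed by -0.01 ± 0.15 in acute and -0.09 ± 0.15 in chronic MPTP against control. Slc6a12, the betaine and GABA transporter, lay at 6.10 ± 0.04, 6.23 ± 0.03 and 6.10 ± 0.10 in control, acute and chronic groups, and its acute arrays lay above all controls (0.13 ± 0.08, adjusted p = 1 in limma). Slc6a20a, which carries proline and other imino acids, differed by 0.03 ± 0.18 and -0.14 ± 0.18 from control in acute and chronic MPTP. Slc6a5, the glycine transporter of glycinergic neurons, lay below the filter, between 5.53 and 5.93. Slc6a3, the dopamine transporter, lay at 6.64 ± 0.08 in controls, 6.37 ± 0.14 in acute and 6.56 ± 0.11 in chronic MPTP, with a difference of -0.27 ± 0.10 for acute against control and no overlap between those groups (adjusted p = 1 in limma). Its mRNA is made in the cell bodies of the midbrain, so these striatal values do not measure dopamine axons.

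Genes that make and handle the same substrates showed no call. In the GABA list of 10 tested genes 0 passed in any comparison, with median differences of -0.03 in acute and 0.00 in chronic MPTP against control. Gad1 and Gad2, which make GABA, differed by 0.08 ± 0.12 and 0.07 ± 0.20 in chronic against control, and Slc32a1, which loads GABA and glycine into vesicles, by 0.19 ± 0.25. Of 6 genes of proline synthesis and oxidation 0 passed, with a median of 0.03 in chronic against control. Prodh, the first enzyme of proline breakdown, lay at 8.14, 8.40 and 8.34 on the control arrays and from 8.29 to 8.41 on the chronic arrays.

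Among 13 tested genes of glycine transport, cleavage and receptors 0 passed either. The glycine receptor subunits Glra2 and Glra3 had the smallest p of that list. Glra2 lay at 9.62, 8.62 and 9.65 on the control arrays and at 8.25, 8.74 and 8.26 on the chronic arrays, a difference of -0.88 ± 0.28 (adjusted p = 0.876 in limma). Glra3 lay at 6.27, 6.91 and 7.25 on the control arrays and at 5.58, 6.05 and 5.97 on the chronic arrays, without overlap (-0.94 ± 0.32, adjusted p = 0.876 in limma). These chronic values of Glra3 lay near the filter threshold of 5.89. In acute MPTP both subunits also had lower means than in controls, with overlapping groups (-0.43 ± 0.28 for Glra2 and -0.63 ± 0.32 for Glra3). Of 13 other neutral amino acid carriers 0 passed in any comparison. Their median difference was -0.08 in acute and -0.18 in chronic MPTP against control, with 11 and 10 of 13 lower, against medians of 0.01 and -0.01 over all tested genes.

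The genes whose pattern over the 9 arrays was most like that of each transporter were ranked by Pearson's r among 14044 other genes. With 9 arrays, high values arise for many genes: between 16 and 96 genes had r above 0.9 with each transporter. For Slc6a7 the first 5 were Rnd1, Rassf5, Kcnc4, Kcna6 and Syt13 (r from 0.97 to 0.94), and Sv2c, a synaptic vesicle protein abundant in striatum, was among the 2 lowest at -0.92. For Slc6a8 they were Xkrx, Ccdc110, Nab2, Farp2 and Htra3 (0.98 to 0.96). For Slc6a11 they were Itih3, Tns3, Ddc, Caprin2 and Glra1 (0.98 to 0.96). For Slc6a9 they were Phyhd1, Ntsr2, P4ha3, Cpt2 and Desi1 (0.98 to 0.95), of which Ntsr2 is in the astrocyte list. For Slc6a17 they were Olfm2, Ttc7b, Arhgap44, Dnm1 and Elf5 (0.97 to 0.94). For Slc6a6 they were Ranbp17, Ap4e1, Aebp2, Gucy1a1 and Nudt7 (0.97 to 0.93), and for Slc6a15 Il17f, Supt16, Pxt1, Ccng1 and Glmn (0.93 to 0.92).

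Markers of striatum were high on all arrays, with Drd1 between 10.01 and 11.12, Drd2 between 10.88 and 12.01 and Ppp1r1b between 11.44 and 12.31. Markers of neighbouring tissue differed widely. Tbr1, a cortical transcription factor, ran from 5.69 to 9.89, and Ttr, of choroid plexus, from 6.19 to 13.37, with 12.56 on control 3 and 13.37 on acute 3. In chronic against control the median difference was -0.52 for the cortex list, -0.24 for thalamus, septum and hypothalamus, -0.14 for choroid plexus, -0.05 for astrocytes, -0.01 for oligodendrocytes, 0.14 for microglia, 0.07 for endothelium and pericytes and -0.09 for a list of 7 genes of dopamine neurons, which holds Slc6a3 and shares Drd2 with the striatal list. No gene of these lists passed in limma in any comparison.

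**Figure D5:**
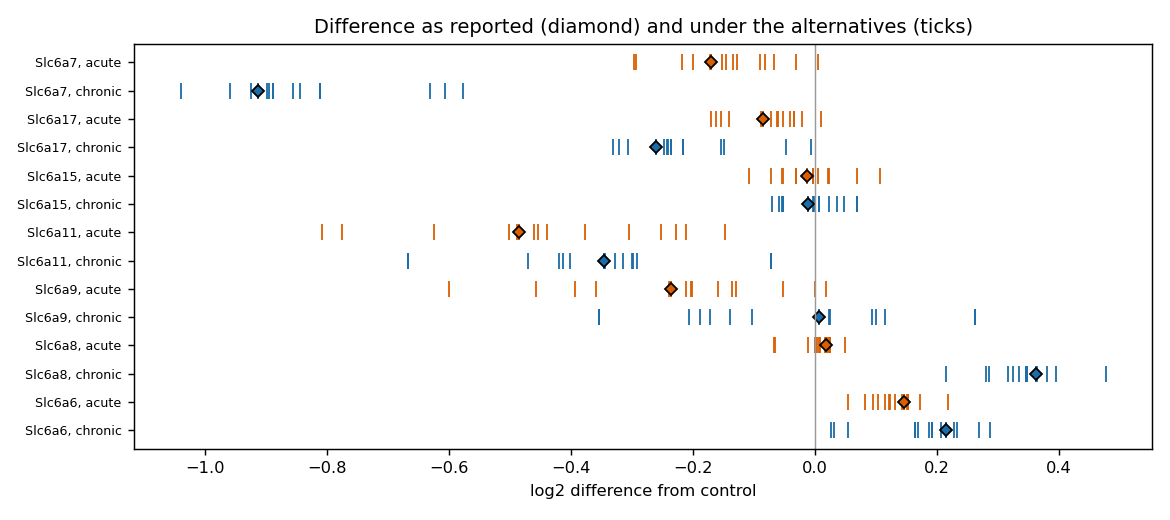
Log2 difference from control (horizontal axis) of each transporter in acute (orange) and chronic (blue) MPTP as reported (diamond) and under 23 alternatives (ticks). The ticks are estimates drawn without their errors. The chronic difference of Slc6a7 runs from -1.04 to -0.58 and that of Slc6a8 from 0.22 to 0.48. The smallest for Slc6a8, with the striatal list as a covariate, was 0.22 ± 0.17 (SE).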

How the data were processed

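The deposited values are log2 intensities of probe sets, as read from their range, and the authors' background correction, normalization and summary are not given in the sources used here. Per the labels' protocols, 200 ng of total RNA was labelled with the Ambion WT Expression kit. Array medians lay between 6.85 and 6.90, and the values were used as deposited. In 38.4% of tested probe sets 2 or more arrays hold exactly the same value, Slc6a6, Slc6a15 and Slc6a17 among them, and in 18.4% arrays of 1 group do, which makes the spread within that group small. Precision is limited by the number of arrays.

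Of 28815 probe sets, 21780 had 1 gene symbol in the platform annotation, 1605 several and 5430 none. Those with 1 symbol and a mean at or above their 25th percentile were tested. A mean per group was fitted to all 9 arrays in limma 3.58.1 (R 4.3.3, 6 residual degrees of freedom before moderation), two-sided, with Benjamini-Hochberg adjustment over 16335 probe sets and a threshold of 0.05. The code was tested on simulated data with known changes before use.

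The members, the 9 cell type lists and the 6 pathway lists were chosen with earlier results of these data known. Named are the 7 transporters, other Slc6 genes, the genes most like each member by Pearson's r, up to 4 genes of a list by smallest p, and tissue markers. Some list genes outside that rule (Gad1, Gad2, Slc32a1) and the 2 probe sets called in chronic against acute were chosen for their role or after their values were seen. Where a gene has several probe sets the brightest stands for it in lists.

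Replicate numbers in the titles were checked for pairing. Deviations from group means correlated in all 9 same-numbered pairs of different groups (r from 0.157 to 0.673 across probe sets), against -0.609 to 0.184 in 18 other pairs. The numbers therefore count as pairing the arrays, from the values and not from the labels, and a fit with the number as a block was run beside each test.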

Additional observations from a re-analysis of the deposited data

How the results depend on the processing

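Each difference was computed under 23 alternatives, 1 of them added after the data were seen, and in 483 values 0 of the 7 transporters passed in limma. The smallest adjusted p, 0.0658, was that of Slc6a7 in chronic against control without control 2. The chronic difference of Slc6a7 from control ran from -1.04 to -0.81 when single arrays were left out, and that of Slc6a8 from 0.28 to 0.48. Signs turned in 17 of 69 values for Slc6a15, 12 for Slc6a9, 4 for Slc6a11, 4 for Slc6a8, 3 for Slc6a17, 3 for Slc6a6 and 1 for Slc6a7.

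Over all probe sets, chronic against acute MPTP had 2 calls, Nr4a1 and Arc. There was 1 with no filter on low values, with only the 2 groups fitted, with the striatal list as a covariate, and with tissue covariates and the block together. There were 0 with the tissue covariates, and 0 each after the 3 cortex-rich arrays or the 2 arrays rich in choroid plexus were left out. Leaving out single arrays gave 1 to 5. Acute against control had 0 calls, 1 with only the 2 groups fitted, and 0 to 1 without single arrays, with 139 probe sets at an unadjusted p under 0.05. Chronic against control had 0, with 900 at that level, and 0 to 2 without single arrays. With the replicate block the counts of calls were 0, 0 and 2, and the block changed no call. It moved the counts at an unadjusted p under 0.05 to 687, 2128 and 2278, from 139, 900 and 837, with 0, 3 and 2 of the transporters among them as before.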
